A study of Homo sapiens with 12 samples.

Results

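The 36 genes described here encode aminoacyl-tRNA synthetases, the enzymes that join each amino acid to its transfer RNA. They were taken from a list of gene symbols and matched to the Ensembl identifiers of the 3 count tables. The list held 20 genes for cytosolic enzymes and 16 for mitochondrial enzymes, whose symbols end in 2, out of 33704 identifiers in all. All 36 were present in each table and all 36 had enough reads to be tested in each comparison. The 12 libraries, in 6 groups of 2, hold messenger RNA of Jurkat, a cell line grown from a human T-cell leukaemia. The group TAL1-KD carried a doxycycline-inducible shRNA against TAL1, a leukaemia transcription factor, and was kept in doxycycline at 5 µg/ml for 72 h, while TAL1-control was the same line with none. The group UTX-KD carried an inducible shRNA against UTX, the histone demethylase encoded by KDM6A, with the same doxycycline dose and time, and UTX-control was that line with none. The group J4-2uM was Jurkat cells given GSK-J4, a small-molecule inhibitor of KDM6 demethylases, at 2 µM for 72 h, and J4-control received the DMSO vehicle for 72 h. In both shRNA comparisons the presence of doxycycline and the induction of the shRNA cannot be told apart. The labels do not say how many clones made up a line, or whether the 2 libraries of a group came from separate cultures, so p-values measure only the spread between these libraries, which may be technical.

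A synthetase recognises its amino acid, uses ATP to activate it and transfers it to the matching tRNA, so that the ribosome can read the code. Human cells keep largely separate sets of these enzymes, all encoded in the nucleus, for the cytosol and for the mitochondrion, where a small ribosome makes respiratory chain subunits. KARS for lysine and GARS for glycine are exceptions, since each gene supplies both compartments. The enzymes fall into classes I and II by the fold of the catalytic domain, and 8 of the cytosolic ones assemble with the scaffold proteins AIMP1, AIMP2 and EEF1E1 into the multisynthetase complex. The transcription factor ATF4, made when amino acids run short or eIF2 is phosphorylated, is known to activate genes for amino acid synthesis, amino acid uptake and several cytosolic synthetases.

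The libraries held 55524079 to 82534711 counted reads, of which the 36 genes took 0.50% to 0.674%. T-cell markers were present in all libraries (10 of 10 genes tested), and with GSK-J4 their summed level was 1846 to 1913 CPM (read counts scaled to library depth) in J4-2uM and 2066 to 2082 CPM in J4-control. It was 2681 to 2731 CPM in the libraries labelled UTX-KD and 2436 to 2460 CPM in UTX-control, and 3043 to 3457 CPM in the libraries labelled TAL1-KD and 2569 to 2696 CPM in TAL1-control. With GSK-J4, 2 T-cell markers were called higher and 7 lower (adjusted p under 0.05, edgeR), where 37.9% and 36.9% of all genes tested were. In the UTX-labelled comparison 6 and 3 were (25.2% and 25.3% of all genes), and in the TAL1-labelled one 2 and none (26.3% and 27.9%). Of 8 matched markers of other cell types some had too few reads to be tested, CSF1R and EPCAM among them. They were 3 with GSK-J4, 5 with the UTX label and 4 with the TAL1 label. With GSK-J4 3 of the 5 tested were called higher and none lower. CD79A had 92.0 and 83.7 CPM in J4-2uM, against 39.5 and 39.6 CPM in J4-control. The summed level of those 8 markers was 94.6 to 102 CPM in J4-2uM and 46.2 CPM in both J4-control libraries, 60.4 to 62.3 CPM in the libraries labelled UTX-KD and 43.9 to 45.2 CPM in UTX-control, and 65.8 to 69.0 CPM in the libraries labelled TAL1-KD and 74.8 to 75.5 CPM in TAL1-control. Their part in the results below was not tested. The targeted mRNAs were not called different by the test: TAL1 had 232 and 254 CPM in the libraries labelled TAL1-KD, against 254 and 257 CPM in TAL1-control (adjusted p = 0.49, edgeR), and KDM6A had 29.3 and 29.4 CPM in the libraries labelled UTX-KD, against 30.9 and 31.3 CPM in UTX-control (adjusted p = 0.103, edgeR). The knockdown groups are therefore called by their labels throughout. MYC, a growth-promoting transcription factor, had 30.8 and 27.9 CPM in J4-2uM, against 317 and 320.5 CPM in J4-control. Its level is given here for the GSK-J4 comparison only, and its part in the results below was not tested.

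Cytosolic enzymes were the more abundant set in length-scaled reads (RPKM, CPM per kilobase of exon, with all 12 libraries normalised together). Over the 12 libraries the median level ran from 11 RPKM for HARS to 99.0 RPKM for AARS among cytosolic genes, and from 2.40 RPKM for WARS2 to 36.5 RPKM for IARS2 among mitochondrial genes. The 13 highest of the 36 were all cytosolic. IARS2, the mitochondrial isoleucine enzyme, came next at position 14, and HARS, the cytosolic histidine enzyme, was the lowest cytosolic gene at position 26. The length used was that of all annotated exons of a gene merged, such as 7853 bases for HARS and 3421 bases for RARS. The order therefore depends on the annotation as well as on the reads. Neighbours in this order mostly overlapped: KARS spanned 68.1 to 124 RPKM, SARS 42.6 to 132 RPKM and GARS 47.2 to 125 RPKM.

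AARS, the alanine enzyme, varied most over the 12 libraries, from 58.6 to 245 RPKM. Its mean was 233 RPKM in the libraries labelled TAL1-KD against 183 RPKM in TAL1-control, 104 RPKM in the libraries labelled UTX-KD against 65.4 RPKM in UTX-control, and 94.5 RPKM in J4-2uM against 58.9 RPKM in J4-control. The TAL1 shRNA line thus stood highest for AARS with or without doxycycline. VARS, the valine enzyme, was lowest in that line without doxycycline, at 9.23 RPKM in TAL1-control, and had 28.7 RPKM in UTX-control and 25.0 RPKM in J4-control. TARS2, the mitochondrial threonine enzyme, varied least, from 9.73 to 12.1 RPKM. Levels between lines are a description without a test, since no treatment separates those groups.

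**Figure D1:**
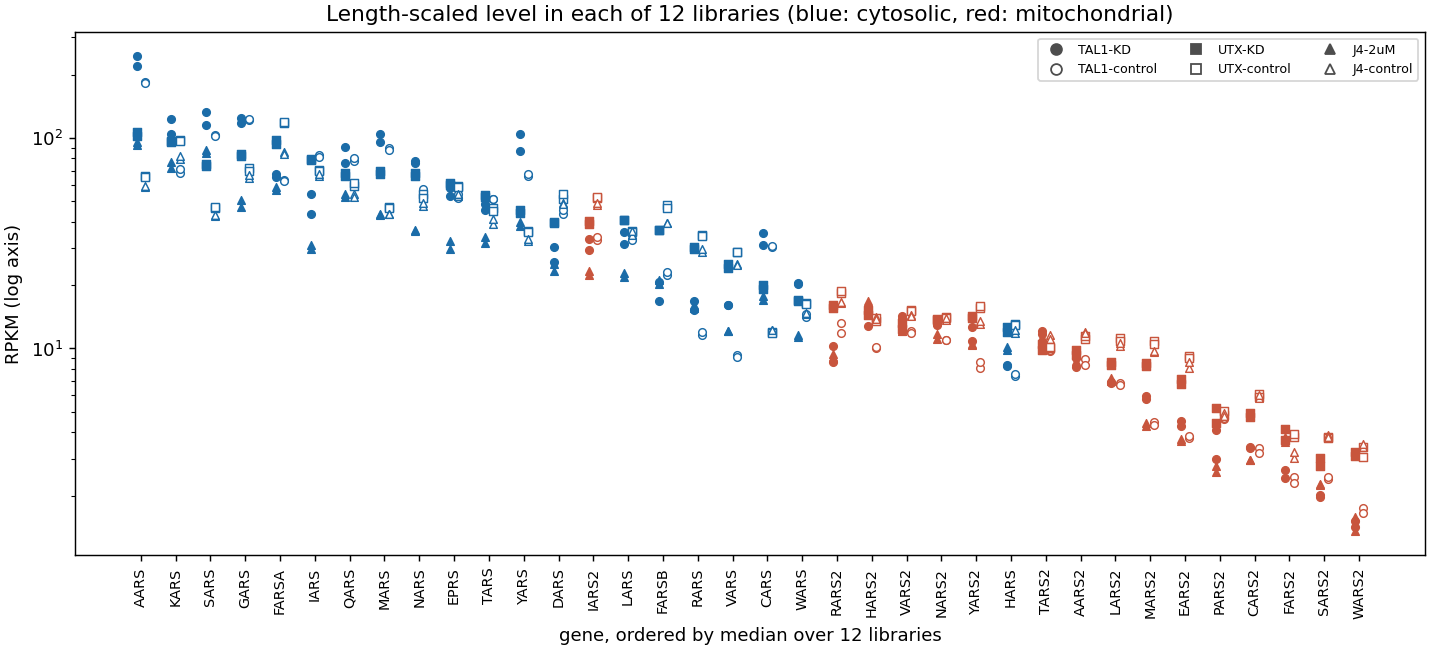
Level of each of the 36 genes in each of the 12 libraries, in RPKM on a log axis, ordered by the median. Blue symbols are cytosolic and red symbols mitochondrial genes, filled symbols are KD or J4-2uM libraries and open symbols their controls. The 13 leftmost genes are all cytosolic, and IARS2 is the highest mitochondrial gene.

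In the UTX-labelled comparison the summed cytosolic level lay above its control and the mitochondrial one below, and with GSK-J4 both lay below. The 20 cytosolic genes summed to 5647 ± 73.6 CPM (SD, n = 2) in the libraries labelled UTX-KD against 4953 ± 27.4 CPM in UTX-control, a difference of 14.0%. The 16 mitochondrial genes summed to 750.3 ± 18.9 CPM in the libraries labelled UTX-KD against 889 ± 0.355 CPM in UTX-control, a difference of -15.6%. Neither pair of groups overlapped. With GSK-J4 the cytosolic sum was 3807 ± 89.6 CPM in J4-2uM against 4454 ± 47.1 CPM in J4-control (-14.5%), and the mitochondrial sum was 574 ± 6.46 CPM in J4-2uM against 850.4 ± 7.57 CPM in J4-control (-32.6%). The cytosolic sum was 6905 ± 289 CPM in the libraries labelled TAL1-KD against 6206 ± 17.0 CPM in TAL1-control (11.3%), and the mitochondrial sum was 635 ± 3.91 CPM in the libraries labelled TAL1-KD against 592 ± 1.30 CPM in TAL1-control (7.22%).

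The ratio of the cytosolic to the mitochondrial sum was 7.46 and 7.59 in the libraries labelled UTX-KD against 5.59 and 5.55 in UTX-control. It was 6.70 and 6.58 in J4-2uM against 5.23 and 5.24 in J4-control. Both treatments thus gave a ratio above both of their controls. In the TAL1 line the ratio was 10.5 and 11.2 in the libraries labelled TAL1-KD against 10.5 and 10.5 in TAL1-control, higher than in any library of the other comparisons whether or not doxycycline was present. These sums carry no p-value, since an exact two-sided permutation test of 2 libraries against 2 cannot go below 0.333. In bulk RNA a change in the mix of cells and a change in RNA per cell cannot be told apart.

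**Figure D2:**
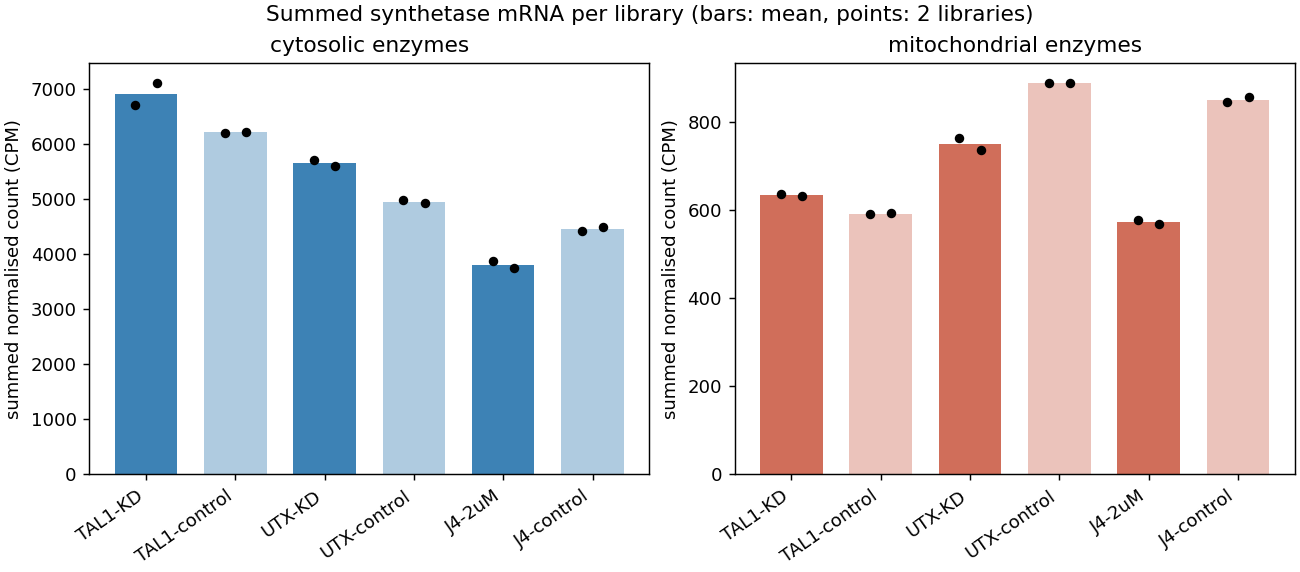
Summed normalised counts (CPM) of the 20 cytosolic genes, left, and of the 16 mitochondrial genes, right, by group. Bars are means and points are the 2 libraries; dark bars are KD or J4-2uM groups and pale bars their controls. The mitochondrial sum is lower in J4-2uM (574 CPM) than in J4-control (850.4 CPM), and the cytosolic sum is higher in UTX-KD (5647 CPM) than in UTX-control (4953 CPM).

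In the UTX-labelled comparison a subset of cytosolic synthetases rose while 10 of the 16 mitochondrial enzymes fell. Of 20 cytosolic genes 11 were called higher and 6 lower at an adjusted p under 0.05, where 25.2% of the 16847 genes tested were called higher and 25.3% lower (50.5% in either direction). Of 16 mitochondrial genes none was called higher and 10 were called lower. The median log2 fold change was 0.15 for the cytosolic set and -0.26 for the mitochondrial set, and 0.01 over all genes tested. All 10 mitochondrial calls and 16 of the 17 cytosolic calls were also made with each of the 4 libraries left out in turn. The exception was HARS, whose adjusted p was 0.11 without UTX-KD replicate 2, 0.136 without UTX-control replicate 1 and 0.0531 without UTX-control replicate 2 (edgeR). HARS2 was called higher without UTX-KD replicate 2.

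CARS, the cysteine enzyme, rose most among the cytosolic genes, with 198 and 191 CPM in the libraries labelled UTX-KD, against 121 and 119.8 CPM in UTX-control. Its log2 fold change was 0.69 ± 0.03 (SE, adjusted p = 1.13e-11, edgeR quasi-likelihood test). Both libraries labelled UTX-KD lay above both controls, as they did for each of the other risers given here. AARS had 473 and 453 CPM in the libraries labelled UTX-KD, against 296 and 294 CPM in UTX-control, a log2 fold change of 0.65 ± 0.03 (adjusted p = 2.54e-11, edgeR). SARS, which charges serine and also primes selenocysteine, had 285 and 277 CPM in the libraries labelled UTX-KD, against 179 and 180.1 CPM in UTX-control (0.65 ± 0.03, adjusted p = 1.54e-11, edgeR). MARS is the methionine enzyme, whose tRNA starts proteins made in the cytosol. It had 485 and 469 CPM in the libraries labelled UTX-KD, against 329.9 and 328 CPM in UTX-control (0.54 ± 0.03, adjusted p = 2.11e-10, edgeR). Each of these 4 mRNAs was between 1.45-fold and 1.62-fold of its control. The other 7 cytosolic genes that rose were NARS, YARS, GARS, TARS, LARS, IARS and QARS, from 0.32 for NARS, the asparagine enzyme, to 0.14 for QARS, the glutamine enzyme, on the log2 scale.

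DARS, the aspartate enzyme, fell most among the cytosolic genes, with 157 and 158 CPM in the libraries labelled UTX-KD, against 207 and 219 CPM in UTX-control (-0.44 ± 0.03, adjusted p = 5.61e-09, edgeR). FARSB and FARSA encode the 2 subunits of the cytosolic phenylalanine enzyme and fell together. FARSB had 121 and 122 CPM in the libraries labelled UTX-KD, against 163 and 157 CPM in UTX-control, a log2 fold change of -0.39 ± 0.03 (adjusted p = 1.27e-08, edgeR). FARSA had 235 and 226 CPM in the libraries labelled UTX-KD, against 286 and 291 CPM in UTX-control (-0.32 ± 0.03, adjusted p = 1.18e-07, edgeR). In none of these did the groups overlap. VARS had 151 and 145 CPM in the libraries labelled UTX-KD, against 175 and 174 CPM in UTX-control (-0.24 ± 0.03, adjusted p = 4.17e-06, edgeR), RARS, the arginine enzyme, had 100.4 and 102 CPM in the libraries labelled UTX-KD, against 119 and 117 CPM in UTX-control (-0.22), and HARS changed by -0.10 (adjusted p = 0.0175). EPRS, which joins both glutamate and proline to their tRNAs, was at 0.01, WARS, the tryptophan enzyme, at 0.03 and KARS at -0.04 on the log2 scale, none of them called.

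Among mitochondrial enzymes, IARS2 had 166 and 161 CPM in the libraries labelled UTX-KD, against 217 and 219 CPM in UTX-control (-0.41 ± 0.03, adjusted p = 4.72e-09, edgeR). EARS2, the glutamate enzyme, had 40.6 and 38.2 CPM in the libraries labelled UTX-KD, against 53.0 and 51.8 CPM in UTX-control (-0.41 ± 0.04, adjusted p = 1.7e-07, edgeR). SARS2, the serine enzyme, had 9.60 and 8.86 CPM in the libraries labelled UTX-KD, against 12.3 and 12.1 CPM in UTX-control (-0.40 ± 0.06, adjusted p = 3.52e-05, edgeR). The 2 groups did not overlap in these or in the other genes of the set that fell. They also did not overlap in HARS2 and NARS2, which were not called. With 2 libraries per group a lack of overlap is weak support, here and elsewhere, and its share over all genes was not counted. LARS2 (-0.40), MARS2 (-0.37), CARS2 (-0.33), VARS2 (-0.27), AARS2 (-0.26), RARS2 (-0.26) and YARS2 (-0.18) were also called lower. The 6 genes not called were FARS2, HARS2, NARS2, PARS2, TARS2 and WARS2, between -0.06 for NARS2 and 0.08 for HARS2. By class, 8 of 9 mitochondrial class I genes were called lower (median -0.33) and 2 of 7 class II genes (median -0.05).

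With GSK-J4 most synthetases of both compartments fell, and 4 cytosolic genes rose. Of 20 cytosolic genes 4 were called higher and 14 lower, where 37.9% of the 17907 genes tested were called higher and 36.9% lower (74.9% in either direction). Of 16 mitochondrial genes 2 were called higher and 13 lower. The median log2 fold change was -0.38 for the cytosolic set, -0.65 for the mitochondrial set and 0.01 over all genes tested. All 15 mitochondrial calls and 17 of the 18 cytosolic calls were also made with each library left out in turn. KARS was the exception, with an adjusted p of 0.125 without J4-control replicate 2 (edgeR).

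SARS rose most, with 362 and 354 CPM in J4-2uM, against 177 and 178 CPM in J4-control, a log2 fold change of 1.01 ± 0.03 (adjusted p = 1.23e-11, edgeR) or 2.02-fold. AARS had 467 and 457 CPM in J4-2uM, against 286 and 288 CPM in J4-control (0.69 ± 0.03, adjusted p = 3.68e-10, edgeR), and CARS had 185 and 195 CPM in J4-2uM, against 134 and 133 CPM in J4-control (0.51 ± 0.03, adjusted p = 1.76e-08, edgeR). YARS, the tyrosine enzyme, had 355 and 343 CPM in J4-2uM, against 288 and 296 CPM in J4-control (0.26 ± 0.03, adjusted p = 1.04e-05, edgeR). These 4 genes were also called higher in the UTX-labelled comparison, and in all of them both J4-2uM libraries stood above both controls. MARS (0.00) and QARS (-0.00) were not called and their groups overlapped, and MARS (-0.088), QARS (-0.11) and the mitochondrial TARS2 (-0.11) were called lower once a trend with GC content and length was removed, an alternative added after the data were seen.

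IARS, the isoleucine enzyme, fell most in the cytosolic set, with 248 and 239.5 CPM in J4-2uM, against 528 and 539.9 CPM in J4-control (-1.13 ± 0.03, adjusted p = 6.78e-12, edgeR). VARS had 80.1 and 80.9 CPM in J4-2uM, against 165 and 165 CPM in J4-control (-1.04 ± 0.03, adjusted p = 1.09e-11, edgeR). DARS had 109 and 103 CPM in J4-2uM, against 214 and 212 CPM in J4-control (-1.01 ± 0.04, adjusted p = 3.42e-11, edgeR). Their levels were 0.457-fold of control for IARS, 0.488-fold for VARS and 0.497-fold for DARS. FARSB had 77.1 and 74.6 CPM in J4-2uM, against 144 and 144 CPM in J4-control (-0.92 ± 0.03, adjusted p = 4.12e-11, edgeR), and its partner subunit FARSA fell by less (-0.56). RARS (-0.88), EPRS (-0.78) and LARS, the leucine enzyme (-0.66), were also called lower. The remaining falls, in GARS, NARS, WARS, TARS, HARS and KARS, ran from -0.42 to -0.11. Of the 8 members of the multisynthetase complex 6 were called lower and none higher (median -0.72), and of the 12 cytosolic genes outside it 8 were called lower and 4 higher (median -0.32).

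Among mitochondrial genes, WARS2 had 6.61 and 5.70 CPM in J4-2uM, against 14.2 and 14.7 CPM in J4-control (-1.23 ± 0.08, adjusted p = 6.65e-09, edgeR). EARS2 had 22.5 and 23.2 CPM in J4-2uM, against 50.1 and 53.4 CPM in J4-control (-1.18 ± 0.05, adjusted p = 6.16e-11, edgeR), and MARS2 had 14.0 and 14.6 CPM in J4-2uM, against 31.4 and 31.7 CPM in J4-control (-1.15 ± 0.05, adjusted p = 1.67e-10, edgeR). The 2 groups lay far apart in each of these genes. IARS2 (-1.08), CARS2 (-1.0), PARS2 (-0.85), RARS2 (-0.83), SARS2 (-0.76), LARS2 (-0.54), AARS2 (-0.47), YARS2 (-0.34), NARS2 (-0.27) and VARS2 (-0.25) were also called lower. FARS2, the single-chain phenylalanine enzyme, rose, with 19.8 and 19.0 CPM in J4-2uM, against 15.8 and 16.9 CPM in J4-control (0.24 ± 0.06, adjusted p = 0.00129, edgeR). HARS2, the histidine enzyme, also rose, with 64.4 and 68.7 CPM in J4-2uM, against 57.0 and 56.1 CPM in J4-control (0.24 ± 0.04, adjusted p = 0.000122, edgeR), and TARS2 was at -0.02 and not called. All 9 class I genes were called lower (median -1.0), and of 7 class II genes 4 were called lower and 2 higher (median -0.27).

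**Figure D3:**
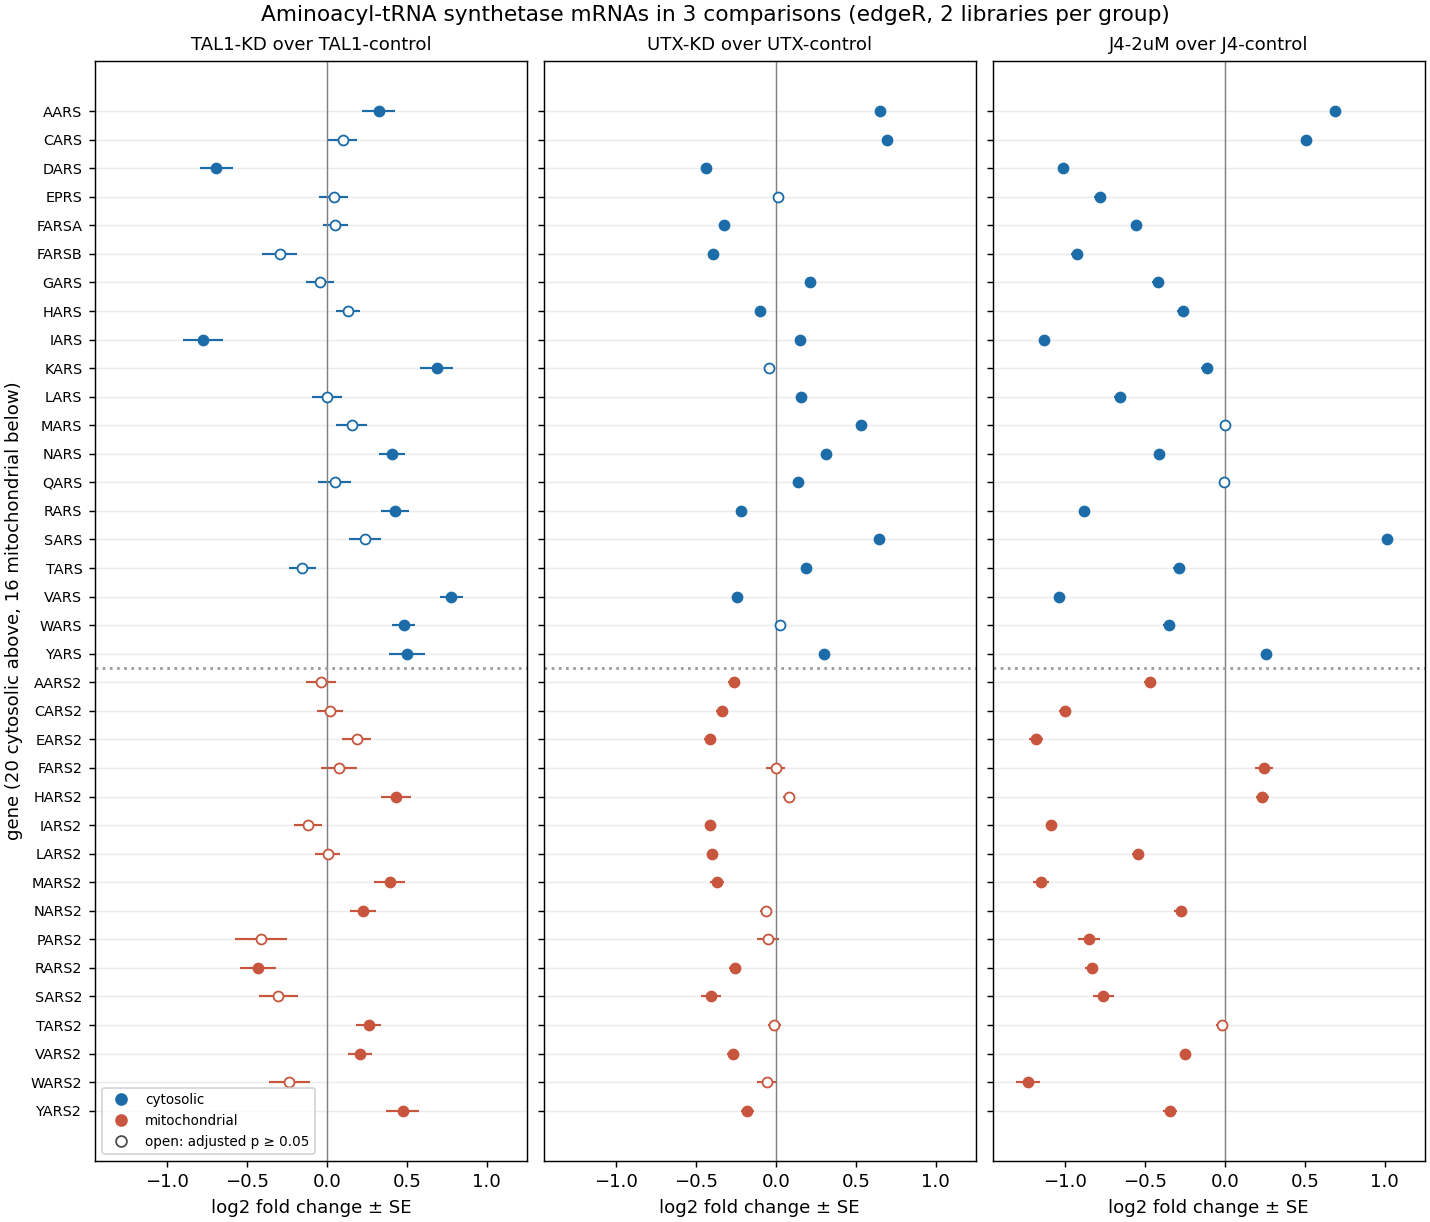
Log2 fold change with its standard error for all 36 genes in the 3 comparisons, cytosolic genes (blue) above the dotted line and mitochondrial genes (red) below it. Filled points have an adjusted p under 0.05 in edgeR, with 2 libraries per group. In the UTX-labelled panel 10 mitochondrial genes are called lower and none higher, and in the GSK-J4 panel SARS, AARS, CARS and YARS are the 4 cytosolic genes called higher.

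VARS and KARS rose, and IARS and DARS fell, by over 0.6 on the log2 scale in the TAL1-labelled comparison, and the other members changed by less. Of 20 cytosolic genes 7 were called higher and 2 lower, where 26.3% of the 16829 genes tested were called higher and 27.9% lower (54.2% in either direction). Of 16 mitochondrial genes 6 were called higher and 1 lower. The spread between libraries was wider here (biological coefficient of variation 8.40%) than in the UTX-labelled (2.30%) and GSK-J4 (2.69%) comparisons, so counts of calls are not on 1 footing across them. The median log2 fold change was 0.11 for the cytosolic set, 0.05 for the mitochondrial set and -0.02 over all genes tested. The number of calls changed with the libraries used. Without TAL1-control replicate 1 the genes called higher were 3 cytosolic and none mitochondrial, without TAL1-control replicate 2 they were 4 and 1, and without TAL1-KD replicate 1 there were 12 cytosolic genes higher and 4 lower. Without TAL1-KD replicate 1 the mitochondrial genes called lower were 5, without TAL1-KD replicate 2 they were 2, and without TAL1-control replicate 2 none. VARS, KARS, WARS, IARS and DARS were called with each library left out, and no mitochondrial gene was.

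VARS had 90.5 and 89.1 CPM in the libraries labelled TAL1-KD, against 53.0 and 51.7 CPM in TAL1-control (0.78 ± 0.07, adjusted p = 0.000389, edgeR). KARS had 391 and 459 CPM in the libraries labelled TAL1-KD, against 258 and 270.3 CPM in TAL1-control (0.69 ± 0.10, adjusted p = 0.00164, edgeR), and WARS had 119.7 and 118 CPM in the libraries labelled TAL1-KD, against 84.0 and 86.0 CPM in TAL1-control (0.48 ± 0.07, adjusted p = 0.00163, edgeR). In these 3 genes the groups lay well apart. IARS had 370.1 and 293 CPM in the libraries labelled TAL1-KD, against 575 and 559 CPM in TAL1-control (-0.77 ± 0.12, adjusted p = 0.002, edgeR), and DARS had 113 and 94.5 CPM in the libraries labelled TAL1-KD, against 164 and 171 CPM in TAL1-control (-0.69 ± 0.10, adjusted p = 0.00142, edgeR). YARS (0.50), RARS (0.43), NARS (0.41) and AARS (0.32) were also called higher, but were no longer called without TAL1-control replicate 1, where their log2 fold changes were 0.49, 0.40, 0.39 and 0.33. The calls of YARS, NARS and AARS were also lost without TAL1-control replicate 2, at 0.51, 0.42 and 0.31. YARS had 660.4 and 786 CPM in the libraries labelled TAL1-KD, against 508 and 516 CPM in TAL1-control (0.50 ± 0.11, adjusted p = 0.00807, edgeR), and its adjusted p was 0.102 without TAL1-control replicate 1.

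The mitochondrial genes with the largest called changes in that comparison were YARS2, HARS2, MARS2 and RARS2. YARS2 had 21.6 and 24.8 CPM in the libraries labelled TAL1-KD, against 16.2 and 17.3 CPM in TAL1-control (0.47 ± 0.11, adjusted p = 0.00781, edgeR), and HARS2 had 44.0 and 51.2 CPM in the libraries labelled TAL1-KD, against 35.2 and 35.4 CPM in TAL1-control (0.43 ± 0.10, adjusted p = 0.00755, edgeR). MARS2 had 16.1 and 16.5 CPM in the libraries labelled TAL1-KD, against 12.7 and 12.1 CPM in TAL1-control (0.39 ± 0.10, adjusted p = 0.0127, edgeR). RARS2 was the 1 gene called lower, with 24.0 and 20.1 CPM in the libraries labelled TAL1-KD, against 28.2 and 31.3 CPM in TAL1-control (-0.43 ± 0.11, adjusted p = 0.0157, edgeR). The groups did not overlap in any of the 4, but this held for 12 of the 16 mitochondrial genes. PARS2, SARS2 and EARS2, which were not called, were among the 12. TARS2 (0.26), NARS2 (0.23) and VARS2 (0.21) were also called higher, but none of them was called with no filter on low counts. The 9 mitochondrial genes not called ran from -0.41 for PARS2 to 0.19 for EARS2.

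Across the 3 comparisons AARS and YARS were called higher in all, and DARS and RARS2 were called lower in all. Of their TAL1-labelled calls only that of DARS was kept with each library left out. The TAL1-labelled call of AARS was also lost with the stricter filter (adjusted p = 0.0502, edgeR). With the GC content and length correction it was lost too (adjusted p = 0.0556, edgeR). CARS and SARS were called higher in the UTX-labelled and GSK-J4 comparisons. FARSA, FARSB and HARS were called lower in those 2 and in neither direction in the TAL1-labelled one, as were 6 mitochondrial genes. IARS was called lower, higher and lower, in the order TAL1, UTX and GSK-J4, and NARS higher, higher and lower. VARS, RARS, MARS2, VARS2 and YARS2 were called higher in the TAL1-labelled comparison and lower in both others. Of these TAL1-labelled calls only that of VARS was kept with each library left out. VARS2 was not called there with the DESeq2 Wald test (adjusted p = 0.0666). With the GC content and length correction it was not called either (adjusted p = 0.238, edgeR).

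KARS and GARS serve both compartments. KARS had 387 and 382 CPM in the libraries labelled UTX-KD, against 399 and 393 CPM in UTX-control. With GSK-J4 it had 338 and 321 CPM in J4-2uM, against 351 and 360.4 CPM in J4-control. It was not called in the UTX-labelled comparison (adjusted p = 0.237, edgeR), and its fall with GSK-J4 was small (-0.11 ± 0.03, adjusted p = 0.0108, edgeR). Without J4-control replicate 2 that fold change was -0.10 and no longer called. KARS rose in the TAL1-labelled comparison (0.69). GARS had 345 and 338 CPM in the libraries labelled UTX-KD, against 298 and 291 CPM in UTX-control (0.21 ± 0.03, adjusted p = 1.15e-05, edgeR), and 228 and 214 CPM in J4-2uM, against 291 and 300.5 CPM in J4-control (-0.42 ± 0.04, adjusted p = 2.51e-07, edgeR). GARS had 449 and 473 CPM in the libraries labelled TAL1-KD, against 472 and 477 CPM in TAL1-control (-0.04, adjusted p = 0.708, edgeR). GARS thus rose in the UTX-labelled comparison, fell with GSK-J4 and was not called in the TAL1-labelled one.

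The promoter windows of the members were read for 2 motifs because ATF4 and MYC, whose own mRNAs are among the genes measured, are known to act through them. The windows, credited to RefSeq on GRCh38.p14, run from 250 bases before to 50 bases after each annotated start. The CARE-type motif TGATGNAA is the kind bound by ATF4 with a C/EBP partner, and the E-box CACGTG is bound by MYC with MAX and by other factors of that family. Both strands were searched, and no match of the 2 motifs overlapped. A window was in the table for 16 cytosolic and 14 mitochondrial members. Members with no entry were DARS, LARS, VARS, YARS, AARS2 and VARS2. TGATGNAA was found in 7 of 16 cytosolic members (43.8%), 1 of 14 mitochondrial members (7.14%) and 4.46% of 27305 genes in the table. CACGTG was found in 1 of 16 cytosolic members (6.25%), 3 of 14 mitochondrial members (21.4%) and 8.77% of all genes.

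The 8 matches to TGATGNAA are shown with their surroundings, since the genes that carry them include the strongest risers. Each line is 30 bases on the strand that reads TGATGNAA, with the match in capitals, and 6 of the 8 read TGATGCAA.
AARS, chr16:70289675-70289704, + strand: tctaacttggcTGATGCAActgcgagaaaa
CARS, chr11:3057407-3057436, + strand: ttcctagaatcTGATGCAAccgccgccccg
GARS, chr7:30594834-30594863, - strand: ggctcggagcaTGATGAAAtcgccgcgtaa
IARS, chr9:92293692-92293721, + strand: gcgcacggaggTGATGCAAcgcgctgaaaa
MARS, chr12:57488053-57488082, - strand: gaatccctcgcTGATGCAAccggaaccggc
NARS, chr18:57621804-57621833, - strand: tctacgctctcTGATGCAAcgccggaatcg
TARS, chr5:33440956-33440985, - strand: gctggaccagcTGATGCAAtcgaaaggcgc
YARS2, chr12:32756076-32756105, - strand: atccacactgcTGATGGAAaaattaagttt
The match began at position -2 from the start in CARS, -4 in MARS, +3 in TARS, -13 in IARS, +15 in NARS and -33 in GARS, and far upstream at -187 in AARS and -197 in YARS2. CARS, TARS and GARS each have another window, from a different annotated start, without a match.

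All 7 cytosolic genes with a TGATGNAA match were called higher in the UTX-labelled comparison, from 0.15 for IARS to 0.69 for CARS, with a median of 0.32. Of the 9 cytosolic genes with a window and no match 2 were called higher and 4 lower, with a median of -0.04. The risers without a match were SARS, at 0.65, and QARS. With GSK-J4 the split was not of this kind: of the 7 genes with a match 2 were called higher and 4 lower (median -0.29), and of the 9 without 1 was called higher and 7 lower (median -0.35). Of the 7, 2 were called higher and 1 lower in the TAL1-labelled comparison (median 0.10), and of the 9, 3 were called higher and none lower (median 0.13). YARS2, the mitochondrial gene with a match, was called lower in the UTX-labelled comparison (-0.18). These counts describe the windows and are no test of the factor.

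**Figure D4:**
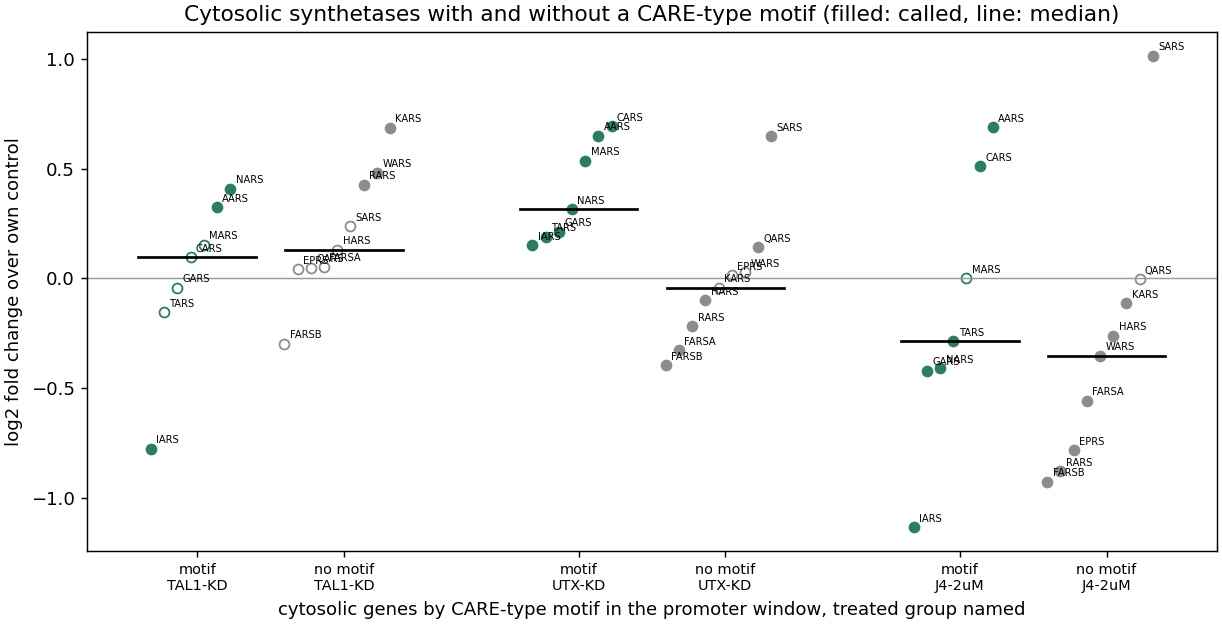
Log2 fold change of the 16 cytosolic genes with a promoter window, split by the presence of a CARE-type motif, in each comparison. Each point is 1 gene, filled points have an adjusted p under 0.05 in edgeR, and lines are medians. The 7 genes with a motif all lie above 0 in UTX-KD, with a median of 0.32, and spread from -1.13 to 0.69 in J4-2uM.

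The 4 members with an E-box are shown because all of them fell with GSK-J4. Each line is 30 bases on the strand of the gene, with CACGTG in capitals. It began at position -186 from the start in IARS, -3 in CARS2, -15 in EARS2 and -11 in MARS2, and the CARS2 match belongs to the upstream of 2 windows for that gene. From another annotated start of EARS2 the same match began at +11.
IARS, chr9:92293866-92293895, - strand: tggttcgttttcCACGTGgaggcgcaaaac
CARS2, chr13:110706501-110706530, - strand: tgctgggatgcaCACGTGcttcgctaacag
EARS2, chr16:23557348-23557377, - strand: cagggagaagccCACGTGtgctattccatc
MARS2, chr2:197705346-197705375, + strand: atgcgcctctcaCACGTGctgtcagaacgc
With GSK-J4 all 4 were called lower, from -1.18 for EARS2 to -1.0 for CARS2, with a median of -1.14, and the 26 other members with a window had a median of -0.35, of which 18 were called lower and 5 higher. Within the mitochondrial set the 3 genes with an E-box had a median of -1.15, and the 11 without had a median of -0.54, of which 8 were called lower and 2 higher. In the UTX-labelled comparison EARS2, MARS2 and CARS2 were called lower and IARS higher. With the TAL1 label MARS2 was called higher and IARS lower. WARS2, which fell most with GSK-J4, and IARS2 have windows without this motif. With GSK-J4 36.9% of all genes tested and 27 of the 36 members were called lower. The 4 genes were shown for their falls, so these counts describe the windows and are no test of a factor that binds the motif.

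The whole window is printed for IARS, the 1 member with both motifs and the cytosolic gene with the largest fall, and for EARS2 and MARS2, whose E-boxes lie close to the start. Capitals mark CACGTG and the reverse complement of TGATGNAA.
IARS, chr9:92293648-92293947, - strand: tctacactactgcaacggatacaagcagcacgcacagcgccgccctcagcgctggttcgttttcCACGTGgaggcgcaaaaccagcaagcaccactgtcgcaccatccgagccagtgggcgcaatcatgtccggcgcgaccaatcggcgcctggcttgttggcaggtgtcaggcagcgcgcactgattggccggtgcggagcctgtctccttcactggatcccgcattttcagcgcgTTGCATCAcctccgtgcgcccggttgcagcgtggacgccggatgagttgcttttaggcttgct
EARS2, chr16:23557301-23557600, - strand: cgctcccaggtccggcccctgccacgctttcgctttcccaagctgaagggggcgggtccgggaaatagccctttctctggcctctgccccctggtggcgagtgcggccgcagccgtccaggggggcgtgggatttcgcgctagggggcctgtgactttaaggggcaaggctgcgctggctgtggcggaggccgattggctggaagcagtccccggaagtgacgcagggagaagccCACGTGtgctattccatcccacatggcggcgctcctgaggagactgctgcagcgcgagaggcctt
MARS2, chr2:197705119-197705418, + strand: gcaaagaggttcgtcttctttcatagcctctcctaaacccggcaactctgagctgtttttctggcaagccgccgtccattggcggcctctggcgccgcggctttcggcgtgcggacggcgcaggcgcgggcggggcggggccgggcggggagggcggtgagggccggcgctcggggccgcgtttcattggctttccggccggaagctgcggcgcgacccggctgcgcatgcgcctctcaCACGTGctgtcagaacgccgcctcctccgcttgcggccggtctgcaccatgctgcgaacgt
In IARS the E-box comes first and the TGATGNAA match, in reverse, shortly before the start.

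For the same amino acid, the cytosolic and mitochondrial enzymes could be set side by side in 16 pairs, in which EARS2 and PARS2 were both paired with EPRS, and FARS2 with FARSA. In the UTX-labelled comparison the cytosolic gene had the higher log2 fold change in 14 of 16 pairs, with opposite calls in 7, those for alanine, cysteine, isoleucine, leucine, methionine, serine and tyrosine. The exceptions were phenylalanine and histidine. With GSK-J4 the cytosolic gene was higher in 8 of 16 pairs, with opposite calls in 6. In 4 of these, alanine, cysteine, serine and tyrosine, the cytosolic gene was the higher, and in phenylalanine and histidine the mitochondrial one was. The serine pair lay farthest apart, with SARS at 1.01 and SARS2 at -0.76 with GSK-J4, and at 0.65 and -0.40 in the UTX-labelled comparison. Both isoleucine enzymes fell with GSK-J4, at -1.13 for IARS and -1.08 for IARS2. The cytosolic gene was higher in 9 of 16 pairs in the TAL1-labelled comparison, and arginine was the 1 pair with opposite calls, RARS at 0.43 and RARS2 at -0.43.

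**Figure D5:**
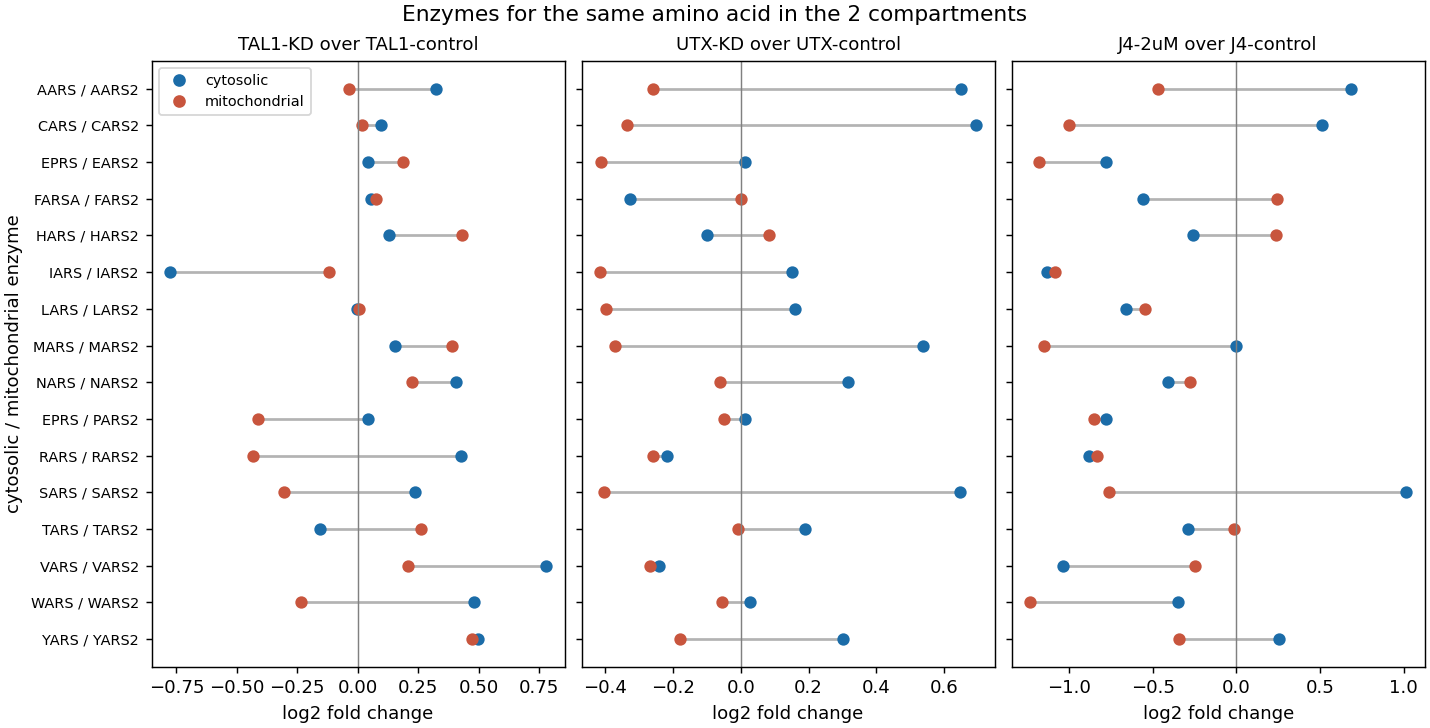
Log2 fold changes of the cytosolic (blue) and mitochondrial (red) enzymes for the same amino acid, joined by a line, in the 3 comparisons, whose horizontal scales differ. EPRS appears in 2 pairs. In the UTX-labelled panel the blue point lies to the right in 14 of 16 pairs, and the serine pair is the widest with GSK-J4.

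Whether the members responded differently to the 3 treatments was tested as an interaction over 8 libraries, with each treatment set against its own controls. The UTX response was below the TAL1 response in 10 of 16 mitochondrial genes and above it in none, where 25% of 17611 genes were below and 25.1% above (50.1% in either direction). In the cytosolic set 7 of 20 were above and 6 below, and without UTX-control replicate 2 the 13 became 8. By adjusted p VARS came first (-1.05 ± 0.07, adjusted p = 1.88e-05, edgeR), with log2 fold changes of -0.24 and 0.78, followed by MARS2 (-0.79 ± 0.09, adjusted p = 0.000162) and RARS (-0.68 ± 0.08, adjusted p = 0.00026). IARS was among those above (0.90 ± 0.13, adjusted p = 0.000544) and KARS among those below (-0.76 ± 0.11, adjusted p = 0.000471).

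The GSK-J4 response was below the UTX response in 16 of 20 cytosolic and 12 of 16 mitochondrial genes, and above it in 1 and 2, where 30.1% of 18197 genes were below and 28.3% above (58.4% in either direction). SARS was the cytosolic gene above (0.38 ± 0.05, adjusted p = 5.01e-08, edgeR), and FARS2 and HARS2 were the mitochondrial ones. IARS had the smallest adjusted p (-1.27 ± 0.05, adjusted p = 7.71e-19), followed by LARS (-0.81 ± 0.05, adjusted p = 1.95e-14) and VARS (-0.79 ± 0.05, adjusted p = 2.14e-14). LARS had 200.3 and 193 CPM in J4-2uM, against 303 and 317 CPM in J4-control, whereas it had 328 and 328 CPM in the libraries labelled UTX-KD, against 296 and 292 CPM in UTX-control. AARS, KARS and YARS were not called in this test, with interactions of 0.05 ± 0.05, -0.06 ± 0.05 and -0.04 ± 0.05.

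The GSK-J4 response was below the TAL1 response in 13 of 20 cytosolic and 14 of 16 mitochondrial genes, and above it in 3 and none, where 26.3% of 18206 genes were below and 27.6% above (53.9% in either direction). VARS again differed most (-1.84 ± 0.07, adjusted p = 7.49e-08, edgeR). MARS2 (-1.57 ± 0.10, adjusted p = 8.41e-07) and EARS2 (-1.39 ± 0.09, adjusted p = 1.31e-06) followed. EARS2 had 22.5 and 23.7 CPM in the libraries labelled TAL1-KD, against 20.2 and 20.4 CPM in TAL1-control and was not called there. The 3 genes above were SARS, CARS and AARS.

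Some members overlap other genes in GENCODE, and whether reads were counted by strand is not given in the sources used here. SARS2 shares 46.2% of its exonic length with AC011455.2 on the same strand and 10.8% with MRPS12, a mitochondrial ribosomal protein gene on the opposite strand, whose promoter window overlaps its own by 280 bases. MRPS12 also fell, by 0.37 in the UTX-labelled comparison and by 0.75 with GSK-J4 on the log2 scale, beside -0.40 and -0.76 for SARS2. MRPS12 rose by 0.66 in the TAL1-labelled comparison, while SARS2 was at -0.30 and not called. HARS and HARS2 lie on opposite strands with 437 shared exonic bases and 184 shared promoter bases. With GSK-J4 they had opposite calls (-0.26 and 0.24). KARS and TERF2IP, a telomere protein gene, share 207 bases of promoter window on opposite strands, and TERF2IP was higher by 0.64 with GSK-J4, by 0.16 with the UTX label and by 0.78 with the TAL1 label. VARS2 shares 22% of its exonic length with GTF2H4 on the same strand, which rose by 0.71 with GSK-J4 while VARS2 fell. DARS shares 305 bases with DARS-AS1 on the opposite strand, which had 25 and 27 reads in J4-2uM against 181 and 257 reads in J4-control. MARS shares 5.05% of its exonic length with DDIT3, a stress factor gene on the opposite strand that rose by 1.40 in the UTX-labelled comparison and by 1.88 with GSK-J4. It shares 7.38% with ARHGAP9, also on the opposite strand, which was at -0.22 with the UTX label, -0.50 with GSK-J4 and -1.19 with the TAL1 label. YARS shares 4.82% with S100PBP on the opposite strand, which was at 0.18, 0.63 and 0.23 in the same order.

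The genes that act beside the synthetases were described from lists. In the UTX-labelled comparison the ATF4 response outside the synthetases rose in 20 of 22 genes tested and fell in 1, with a median log2 fold change of 0.88, where 25.2% of all genes tested were higher and 25.3% lower. ASNS, asparagine synthetase, had 55.0 and 54.5 CPM in the libraries labelled UTX-KD, against 13.9 and 12.4 CPM in UTX-control (2.05 ± 0.05, adjusted p = 4.14e-15, edgeR). SESN2, an amino acid sensor, rose by 1.45, CHAC1, a glutathione-degrading enzyme, by 2.11 and ATF5, a relative of ATF4, by 1.24. ATF4 itself had 616 and 609 CPM in the libraries labelled UTX-KD, against 461 and 467 CPM in UTX-control (0.40 ± 0.03, adjusted p = 5.97e-09, edgeR). With GSK-J4 11 of 22 rose and 5 fell (median 0.17), where 37.9% of all genes were higher and 36.9% lower. ATF5 rose by 2.33, ATF3 by 2.27 and TRIB3, a pseudokinase, by 1.67, DDIT4 fell to a log2 fold change of -1.73, and ATF4 had 390.2 and 375 CPM in J4-2uM, against 447 and 454 CPM in J4-control (-0.24 ± 0.03, adjusted p = 2.28e-05, edgeR). The TAL1-labelled comparison had 5 higher and 10 lower (median -0.24), where 26.3% of all genes were higher and 27.9% lower. PCK2, a mitochondrial carboxykinase, was at -1.01, and the one-carbon enzymes MTHFD2 and SHMT2 at -0.74 and -0.62, while DDIT3 rose by 0.77 and ATF4 by 0.74. The list was chosen with earlier results of these data known and is not independent evidence of a direction.

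Amino acid transporters rose in 9 of 10 genes in the UTX-labelled comparison and fell in none (median 0.60), against 25.2% higher and 25.3% lower over all genes. SLC6A9, a glycine carrier, had 10.9 and 10.9 CPM in the libraries labelled UTX-KD, against 2.15 and 2.01 CPM in UTX-control (2.38 ± 0.08, adjusted p = 5.58e-13, edgeR), and SLC3A2, the heavy chain shared by several carriers, had a log2 fold change of 0.72. With GSK-J4 6 rose and 4 fell, against 37.9% higher and 36.9% lower over all genes. SLC3A2 was at 1.11 and SLC43A1 at 0.83, while SLC7A5, the leucine carrier that pairs with SLC3A2, was at -0.79 and SLC38A1, a glutamine carrier, at -0.74. The TAL1-labelled comparison had 3 higher and 5 lower, against 26.3% and 27.9% over all genes.

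Genes that modify or finish mitochondrial tRNAs were called lower more often than higher in the UTX-labelled and GSK-J4 comparisons. In the UTX-labelled comparison 8 of 10 fell and none rose (median -0.20), with GSK-J4 6 fell and 2 rose (median -0.26), and in the TAL1-labelled one 3 fell and 2 rose (median -0.09). Over all genes 25.3%, 36.9% and 27.9% were called lower in these 3 comparisons, and 25.2%, 37.9% and 26.3% higher. The TAL1-labelled counts thus lay near the shares over all genes. PUS1, a pseudouridine synthase, had 20.2 and 21.8 CPM in J4-2uM, against 46.8 and 47.3 CPM in J4-control (-1.17 ± 0.05, adjusted p = 7.74e-11, edgeR), and it was at -0.44 in the UTX-labelled comparison. Mitochondria have no glutamine enzyme of their own: EARS2 loads glutamate on the glutamine tRNA and the GatCAB amidotransferase, made of QRSL1, GATB and GATC, converts it. GATB had 21.8 and 21.6 CPM in J4-2uM, against 34.6 and 33.7 CPM in J4-control (-0.65 ± 0.04, adjusted p = 1.51e-08, edgeR) and -0.41 in the UTX-labelled comparison. GATC was at -0.23 and -0.14 in those 2 comparisons, both called lower, whereas QRSL1 rose with GSK-J4 (0.15) and was not called in the UTX-labelled one (0.03). MTFMT, which formylates the methionyl-tRNA made by MARS2, was at -0.56 with GSK-J4 and -0.14 in the UTX-labelled comparison, both called lower.

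The scaffold genes of the multisynthetase complex did not move as 1 group. AIMP2 was called lower with GSK-J4 (-0.58 ± 0.04, adjusted p = 3.91e-08, edgeR) and in the UTX-labelled comparison (-0.23), and higher in the TAL1-labelled one (0.40). EEF1E1 was called higher with GSK-J4 (0.22), and AIMP1 was not called there (-0.05). Among the 8 synthetases of the complex in the UTX-labelled comparison 4 were called higher and 2 lower (median 0.08), and of the 12 outside it 7 were called higher and 4 lower (median 0.20).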

How the data were processed

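Messenger RNA of Jurkat cells was measured in 12 libraries, 6 groups of 2. The tools HTSeq 0.6.1p1, TopHat2 2.0.12 and DESeq2, and the build hg19, are named per the submitters' processing notes. The annotation and the strand setting of the counting are not given in the sources used here. The authors deposited 1 table per comparison with raw read counts per Ensembl gene, not normalised. The tables also hold log2 fold changes and p-values deposited by the authors, from DESeq2. In the authors' deposited tables the 36 genes had adjusted p-values under 0.05 for 12 higher and 3 lower in the TAL1-labelled comparison, 11 and 16 in the UTX-labelled one and 6 and 27 with GSK-J4. Calls made here were the same for 33, 36 and 36 of the 36 genes.

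All other values were recomputed from the deposited counts in R 4.3.3. Low counts were removed with filterByExpr and libraries scaled by TMM in edgeR 4.0.16. The quasi-likelihood test was run in each comparison on 4 libraries (two-sided, Benjamini-Hochberg over all genes tested, threshold 0.05), with 16829, 16847 and 17907 genes tested for TAL1, UTX and GSK-J4. Responses were compared as interactions over 8 libraries. CPM values came from these fits, and RPKM values and sums from all 12 libraries normalised together. The script was checked on simulated data. Depth was 55524079 to 82534711 reads, and the biological coefficient of variation 8.40%, 2.30% and 2.69% for TAL1, UTX and GSK-J4.

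Symbols, exonic length and overlaps came from GENCODE 29, and promoter windows from RefSeq (GRCh38.p14), whose coordinates are not those of the files' build. Of the members named with values in every library, up to 4 cytosolic and 3 mitochondrial genes per direction had the largest called change, up to 3 per contrast had the smallest interaction p, and KARS and GARS were added. Others were named after their values were seen. From other lists up to 4 called genes were taken by smallest adjusted p, and further genes of the mitochondrial charging, ATF4 and scaffold lists were named for their role. The members, lists and motifs were chosen with earlier results of these data known, and the GC content and length correction and the crossed replicate block were added after the data were seen. Protein sequences were not analysed here.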

Additional observations from a re-analysis of the deposited data

Results flagged for a closer look

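The 9 interaction tests below had the smallest adjusted p among the members, 3 per contrast, in the test of the difference between 2 responses. Other members also differed by that test, as counted above. Values are log2 with SE and edgeR adjusted p. Between the UTX and TAL1 responses these were VARS (-1.05 ± 0.07, adjusted p = 1.88e-05), MARS2 (-0.79 ± 0.09, adjusted p = 0.000162) and RARS (-0.68 ± 0.08, adjusted p = 0.00026). Each of the 3 was called lower in the UTX-labelled comparison and higher in the TAL1-labelled one.

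Between the GSK-J4 and UTX responses they were IARS (-1.27 ± 0.05, adjusted p = 7.71e-19), LARS (-0.81 ± 0.05, adjusted p = 1.95e-14) and VARS (-0.79 ± 0.05, adjusted p = 2.14e-14). IARS and LARS, the cytosolic enzymes for isoleucine and leucine, fell with GSK-J4 and rose in the UTX-labelled comparison, and VARS fell in both. Between the GSK-J4 and TAL1 responses they were VARS (-1.84 ± 0.07, adjusted p = 7.49e-08), MARS2 (-1.57 ± 0.10, adjusted p = 8.41e-07) and EARS2 (-1.39 ± 0.09, adjusted p = 1.31e-06). VARS was thus among them in all 3 contrasts, which share their libraries and so are not separate support.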

How the results depend on the processing

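The UTX-labelled and GSK-J4 counts of calls stayed within 1.5 times of those reported in the alternatives run (other size factors, DESeq2 1.42.0, filters, replicate block, 12 libraries in 1 fit, GC content and length), except that 1 mitochondrial gene, HARS2, was called higher in the UTX-labelled comparison with the stricter filter, the GC content and length correction or the crossed replicate block. The cytosolic median there was 0.17 with the stricter filter and 0.17 with 12 libraries in 1 fit, and the GSK-J4 mitochondrial median was -0.68 with the GC content and length correction. MARS with GSK-J4 changed sign with that correction, to -0.088 (adjusted p = 0.0126, edgeR).

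In the TAL1-labelled comparison the mitochondrial median was 0.073 with size factors of DESeq2, 0.069 with its Wald test, 0.071 with 12 libraries in 1 fit, 0.00923 with the GC content and length correction, and -0.012 with the stricter filter, a reversal. The cytosolic median was 0.056 with the stricter filter. Mitochondrial genes called higher were 3 with no filter. Mitochondrial genes called lower were 2 with the stricter filter and 3 with 12 libraries in 1 fit or with the GC content and length correction, and cytosolic genes called lower were 4 with 12 libraries in 1 fit. The causes were not tested.

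Same-numbered replicates deviated together in the TAL1-labelled comparison (correlation 0.19), and not in the UTX-labelled (-0.14) or GSK-J4 one (-0.04), so the numbers were not taken to pair the libraries. With a replicate block the TAL1-labelled calls were 8 cytosolic genes higher and 3 lower, and 4 mitochondrial higher and 2 lower, and the calls in the other comparisons numbered the same as without it. The crossed block left 11 cytosolic genes higher and 6 lower and 10 mitochondrial lower in the UTX-labelled comparison.

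With 1 library left out, where the lone library is assumed to vary like the other group, the ranges for TAL1 were 3 to 12 cytosolic genes higher, 2 to 4 lower (median 0.10 to 0.18), and 0 to 7 mitochondrial genes higher and 0 to 5 lower (median 0.00858 to 0.0907). For UTX they were 0 to 1 mitochondrial gene higher, with medians of 0.13 to 0.16 cytosolic and -0.27 to -0.22 mitochondrial. For GSK-J4 the medians were -0.41 to -0.36 cytosolic and -0.67 to -0.65 mitochondrial. The numbers of genes whose responses differed also changed with the library left out, in both sets and in every contrast. Between GSK-J4 and UTX the mitochondrial number was below the one reported above in every such fit. The cytosolic genes whose UTX and TAL1 responses differed numbered 8 to 17.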

Other observations

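Genes that act on eIF2, the initiation factor whose phosphorylation leads to ATF4, were read from the same fits. PPP1R15A, which directs the phosphatase to eIF2, had 186 and 182 CPM in J4-2uM, against 24.6 and 25.9 CPM in J4-control (2.86 ± 0.04, adjusted p = 6.5e-15, edgeR), and it was at 1.13 in the UTX-labelled comparison and 1.33 in the TAL1-labelled one, called higher in each. EIF2S1, the phosphorylated subunit, was at -0.39 with GSK-J4 and -0.32 in the UTX-labelled comparison, called lower in both. Of the 4 eIF2 kinase genes, EIF2AK4, the sensor of uncharged tRNA, was called lower with GSK-J4 (-0.27) and higher in the UTX-labelled comparison (0.10), and EIF2AK3, the sensor in the endoplasmic reticulum, was called higher with GSK-J4 (0.32). Over the list of 8 genes 3 were higher and 4 lower with GSK-J4, 3 higher and 2 lower in the UTX-labelled comparison, and 4 higher and 1 lower in the TAL1-labelled one. Over all genes tested 37.9% were higher and 36.9% lower with GSK-J4, 25.2% and 25.3% in the UTX-labelled comparison, and 26.3% and 27.9% in the TAL1-labelled one, which is also the measure for the lists below.

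Among relatives of the synthetases and proofreading enzymes, DTD2, a D-aminoacyl-tRNA deacylase, had 6.98 and 6.54 CPM in J4-2uM, against 17.8 and 18.1 CPM in J4-control (-1.41 ± 0.06, adjusted p = 2.96e-10, edgeR), and it was called lower in the UTX-labelled (-0.39) and TAL1-labelled (-0.86) comparisons as well. Of the 6 genes in that list 3 were higher and 3 lower with GSK-J4, none higher and 2 lower in the UTX-labelled comparison, and 1 higher and 2 lower in the TAL1-labelled one. XPOT, which exports tRNA from the nucleus, was called higher with GSK-J4 (0.17) and in the UTX-labelled comparison (0.26). EEF1A1, which brings charged tRNA to the ribosome and has processed copies that could share its reads, was at -0.31 and 0.33 in those comparisons, called lower with GSK-J4 and higher in the UTX-labelled one. Of 6 genes for tRNA export and delivery 1 was higher and 3 lower with GSK-J4, 4 higher and none lower in the UTX-labelled comparison, and 1 higher and none lower in the TAL1-labelled one.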
